A study of Mus musculus with 5 samples.

Results

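The genes of fatty acid desaturation and synthesis were examined in Ter119+ bone marrow cells of wild-type (WT) and Polg mutant mice. The list holds 10 genes, chosen by name as the desaturases Scd1, Scd2, Fads1 and Fads2, the elongases Elovl5 and Elovl6, the synthesis enzymes Fasn, Acaca and Acly, and the regulator Srebf1. A gene counted as measured where a probe set carried its symbol alone, and 9 of the 10 genes, among 22180 genes in all, were measured, each by 1 probe set. The probe set of Scd2 carries the symbol of a second gene as well, so Scd2 was not analysed here. The WT group (2 arrays) is labelled Polgtm1Lrsn wt/wt and the Polg mutant group (3 arrays) Polgtm1Lrsn mt/mt, both on a C57BL/6 background. Polg encodes the polymerase that copies mitochondrial DNA, and mice with the mutant allele are known as mtDNA-mutator mice. Every array carries 1 breeding label: the parents were Atg7 flox/flox and PolG wt/mt, and the fathers also carried Epo-cre ki/wt, so floxed Atg7 is common to both groups. Which mice inherited the Cre allele, their ages and the bleeding schedule are not stated in the labels. The series' design says that the mice were phlebotomized. Cells bearing CD45 were removed with magnetic beads before Ter119, an antigen of erythroid cells, was used to select the rest.

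Fatty acids are built in the cytosol from acetyl-CoA. ATP citrate lyase (Acly) makes acetyl-CoA from citrate, acetyl-CoA carboxylase (Acaca) turns it into malonyl-CoA, and fatty acid synthase (Fasn) joins these units into palmitate. Elongases of the endoplasmic reticulum lengthen the chain, stearoyl-CoA desaturases place the first double bond in saturated chains, and the Fads enzymes act on polyunsaturated chains. The transcription factor SREBP-1, encoded by Srebf1, is known for turning on genes along this route. In red cell precursors fatty acids go mainly into membrane phospholipids, and the mature red cell no longer makes them.

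The arrays resembled each other in overall level, with medians between 5.10 and 5.13 on the log2 scale and lower quartiles between 3.95 and 4.02. Signal over background was not known, so a level near the lower quartile may be background and is called dim here. Erythroid marker genes averaged 11.7 to 12.1 on each array over 17 measured genes. Of these 14 were lower on every Polg mutant array than on both WT arrays and 0 were higher. Over all genes 9.73% were lower and 8.36% higher in this way. Sex-linked transcripts set WT replicate 1 apart. Xist, the RNA of the inactive X chromosome, read 5.76 there and 11.9 to 12.1 on the other 4 arrays, while the Y-linked genes Uty and Eif2s3y read 7.39 and 7.16 there and 2.87 to 3.50 elsewhere. Values without WT replicate 1 are given for the genes of the list whose difference it moved by over 1.5 times or turned, and for Scd1, Fads1 and Fads2. Neutrophil marker genes averaged 7.81 and 6.91 on the WT arrays and 8.20, 8.68 and 7.09 on the Polg mutant arrays, over 20 genes. In bulk samples fewer cells of a type and less RNA per cell cannot be told apart. With limma, 0 of 22180 genes were called higher and 0 lower in the Polg mutant (0% of those tested in each direction) at an adjusted p under 0.05, and 2110 (9.51%) had an unadjusted p under 0.05, 4.18% of all genes higher and 5.33% lower.

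Scd1, which encodes the stearoyl-CoA desaturase that makes oleate and palmitoleate from saturated chains, was much lower in the Polg mutant cells. Its log2 level was 8.36 and 7.52 on the WT arrays against 4.16, 4.64 and 3.94 on the Polg mutant ones (probe set 17365098). The groups did not overlap, and 2.88 log2 units lay between the lower WT array and the highest Polg mutant array. The mean was 7.94 ± 0.60 (SD, n = 2) in WT and 4.25 ± 0.36 (SD, n = 3) in the Polg mutant, a difference of -3.69 ± 0.37 (SE), or 12.9-fold lower. The Polg mutant levels were dim, close to the lower quartile, so the fold is not exact. Scd1 had been singled out with these values known, so no test of it is given. Among all 22180 genes it had the most negative difference, followed by Runx1t1 at -2.27, and 3 genes, Scd1 included, differed by at least as much in either direction.

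**Figure D1:**
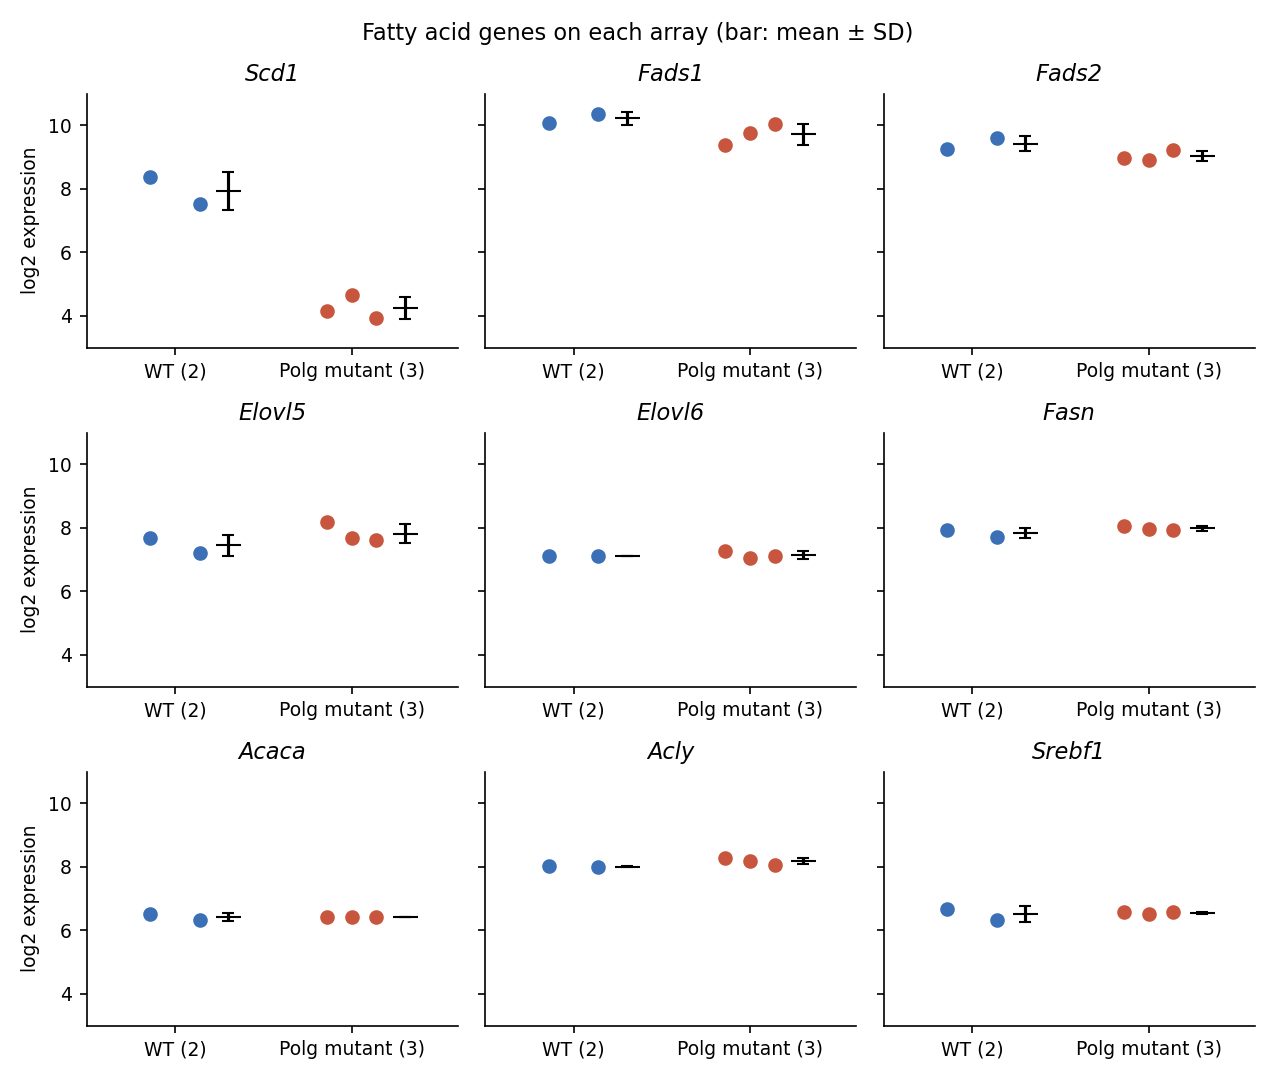
Log2 expression of the 9 measured genes, with 1 point per array (2 WT in blue, 3 Polg mutant in red) and the mean ± SD beside the points. Scd1 lay at 7.52 or above on the WT arrays and at 4.64 or below on the Polg mutant arrays, while every other gene's group means differed by under 0.5 log2 units.

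Leaving out either WT array left a single WT array. Without WT replicate 1, so that all 4 arrays were of high Xist, the Scd1 difference was -3.27, and without WT replicate 2 it was -4.11. On the 2 arrays of lower neutrophil signal, WT replicate 2 and Polg mutant replicate 3, Scd1 read 7.52 and 3.94, a difference of -3.57 between single arrays. Fat cells express Scd1 at high level, so adipocyte and stromal genes were read beside it. Over 12 measured genes their mean level was 5.19 and 5.65 (WT) against 5.13, 5.17 and 5.34 (Polg mutant), and the groups overlapped for each of them. Of the 12 differences 10 were below 0 and 2 above, with a median of -0.07. Adiponectin (Adipoq), a hormone made by fat cells, read 4.96 and 5.79 in WT and 4.92 ± 0.11 (SD, n = 3) in the Polg mutant. Its difference was -0.46 ± 0.29 (SE). Monocyte and macrophage genes averaged 5.70 to 6.06 over the 5 arrays (18 genes), with a median difference of 0.08. Lymphocyte genes averaged 4.70 to 5.30, with 11 of 12 differences below 0 and a median of -0.13. Megakaryocyte and platelet genes averaged 5.86 to 6.65, with 8 of 9 differences below 0 and a median of -0.13. Stem and progenitor genes averaged 6.13 to 6.41 (9 genes), with a median difference of -0.06. The part of sex, of neutrophils or of these other cells in the Scd1 difference was not tested.

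**Figure D2:**
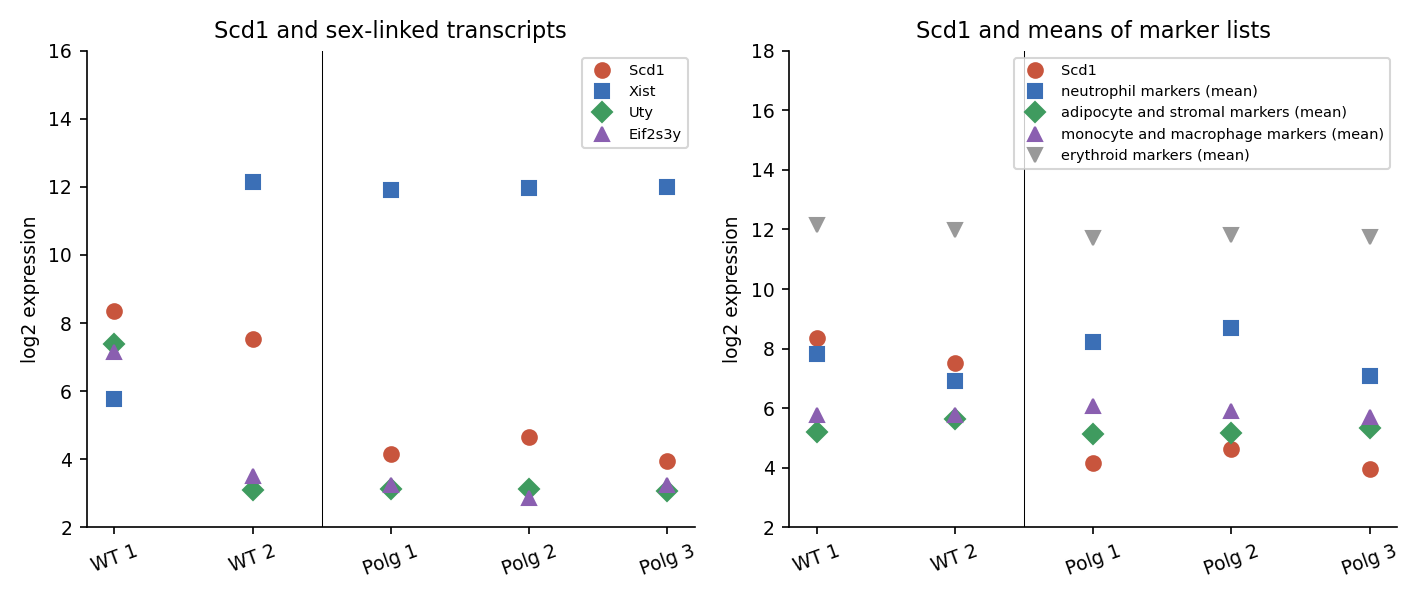
Log2 level of Scd1 on each array beside the sex-linked transcripts Xist, Uty and Eif2s3y (left) and beside the mean of each of 4 marker gene lists (right), with WT arrays left of the vertical line. Xist was low on WT replicate 1 alone (5.76), and Scd1 read 8.36 and 7.52 on the WT arrays.

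The measured paralogs of Scd1 were dim already in WT, so a fall like that of Scd1 could not have shown in them. Mouse Scd genes form a cluster on chromosome 19, and in the RefSeq annotation of GRCm38.p6 Scd4 and Scd3 were the nearest measured coding genes on one side of Scd1. Scd3 read 4.31 and 4.35 (WT) against 4.31, 4.31 and 4.28 (Polg mutant), a difference of -0.03 ± 0.02 (SE). Scd4 read 3.89 on 4 arrays and 3.92 on Polg mutant replicate 1, a difference of 0.01 ± 0.02 (SE). Both were dim in each group. On the other side of Scd1, Wnt8b, a Wnt ligand gene, differed by 0.01 and was dim at 3.60 to 3.65. Sec31b, a homologue of a vesicle coat gene, differed by -0.16. Probe sequences were not used here, so whether the probes separate the Scd paralogs was not tested.

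Fads1 and Fads2, the delta-5 and delta-6 desaturase genes of polyunsaturated fatty acids, were lower by smaller amounts that did not pass the test. Fads1 read 10.06 and 10.37 (WT) against 9.38, 9.75 and 10.04 (Polg mutant), a difference of -0.49 ± 0.24 (SE; limma adjusted p = 0.638). Fads2 read 9.26 and 9.59 (WT) against 8.98, 8.90 and 9.22 (Polg mutant), a difference of -0.39 ± 0.16 (SE; limma adjusted p = 0.632). All Polg mutant values were below both WT values for each gene, but the space between the groups was 0.02 for Fads1 and 0.04 for Fads2, less than the within-group SD of 0.16 to 0.33. Within each genotype the array of lowest neutrophil signal, which also had the highest adipocyte and stromal mean, had the highest Fads1 and the highest Fads2. On that pair of arrays the differences were -0.33 for Fads1 and -0.37 for Fads2. Without WT replicate 1 they were -0.64 and -0.56, without WT replicate 2 -0.34 and -0.23, and without Polg mutant replicate 1 -0.32 and -0.36.

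Fads3, the neighbour of Fads2 in the same cluster on chromosome 19, followed the arrays and not the genotype. It read 8.39 and 10.69 (WT) against 8.53, 8.77 and 10.57 (Polg mutant), so WT replicate 2 and Polg mutant replicate 3 were high and the other 3 arrays low. Its difference was -0.25 ± 1.07 (SE; limma adjusted p = 0.963), and -1.40 to 0.90 when 1 array was left out. WT replicate 2 and Polg mutant replicate 3 were also the 2 arrays of low neutrophil signal. Their adipocyte and stromal means were the highest, at 5.65 and 5.34 against 5.13 to 5.19 on the others. Their stem and progenitor means were the lowest, at 6.13 and 6.14 against 6.22 to 6.41. Whether cell content gave rise to the Fads3 values was not tested. Of the coding genes beside this cluster, Fen1, a flap endonuclease of DNA replication, differed by -0.47 and Rab3il1, a Rab exchange factor, by -0.48, while Tmem258 differed by 0.09 and Myrf read 5.80 on every array. The neighbours were looked up after the values of the Fads genes had been seen.

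**Figure D3:**
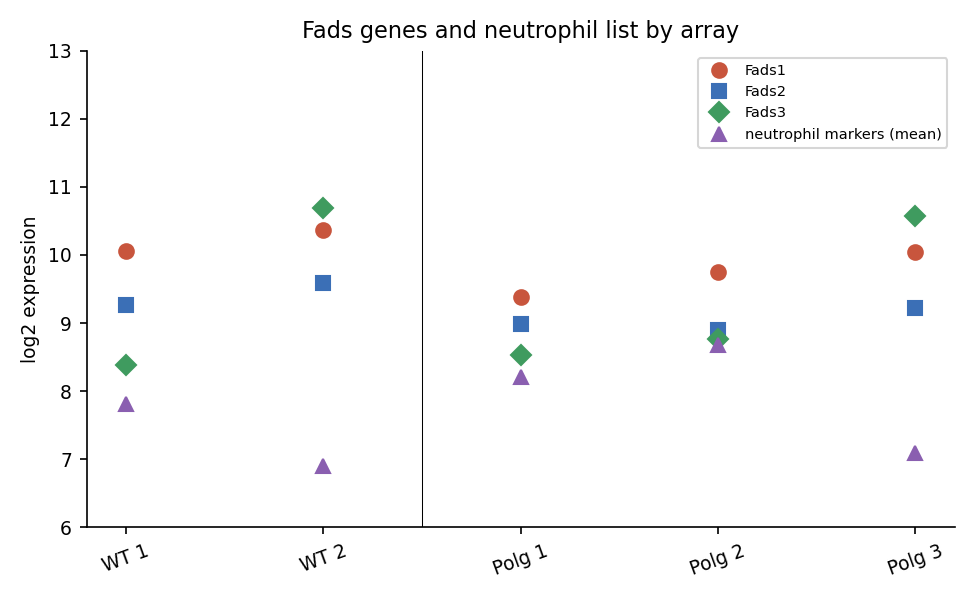
Log2 level of Fads1, Fads2 and Fads3 and the mean of the neutrophil list on each array, with WT arrays left of the vertical line. Fads3 was at 10.69 and 10.57 on the 2 arrays where the neutrophil mean was 6.91 and 7.09, and between 8.39 and 8.77 on the other 3.

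Promoter sequences, from the RefSeq table of GRCm38.p6, held 7 of the 10 genes, in 9 windows that run from 250 bases before the start site to 50 after it. Scd1, Scd2 and Fads1 had no entry. The promoter of Fads2 is shown as that of a gene lower on all Polg mutant arrays, that of Acly as one higher on all of them, and that of Fasn as one whose groups overlapped. Each line gives the 250 bases before the start site, and capitals mark CCAAT (the NF-Y motif) and GGGCGG (the Sp1 motif) on either strand.
Fads2, chr19:10101504-10101753, minus strand: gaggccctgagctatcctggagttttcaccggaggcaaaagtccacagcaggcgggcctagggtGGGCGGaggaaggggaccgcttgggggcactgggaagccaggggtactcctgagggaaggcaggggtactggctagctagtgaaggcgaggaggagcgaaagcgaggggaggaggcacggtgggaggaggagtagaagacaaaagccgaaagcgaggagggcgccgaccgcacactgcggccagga
Acly, chr11:100528001-100528250, minus strand: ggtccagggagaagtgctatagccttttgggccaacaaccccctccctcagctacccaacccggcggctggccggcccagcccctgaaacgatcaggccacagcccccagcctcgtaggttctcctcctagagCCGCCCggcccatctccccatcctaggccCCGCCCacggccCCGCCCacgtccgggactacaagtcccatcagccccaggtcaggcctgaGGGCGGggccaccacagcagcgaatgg
Fasn, chr11:120824548-120824797, minus strand: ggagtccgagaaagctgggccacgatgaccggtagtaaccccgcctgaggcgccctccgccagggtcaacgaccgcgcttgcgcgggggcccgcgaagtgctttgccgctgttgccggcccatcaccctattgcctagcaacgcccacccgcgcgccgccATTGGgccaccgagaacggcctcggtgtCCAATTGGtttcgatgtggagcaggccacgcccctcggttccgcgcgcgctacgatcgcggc
Fads2 held 1 GGGCGG match, at position -186 counted from the start site. Acly held 4 GGGCGG matches, and 1 CCAAT match lay after its start site, outside the printed stretch. Fasn held 3 CCAAT matches, at positions -90, -62 and -59, of which the last 2 share bases. Over the whole windows CCAAT was found in 4 of the 7 genes (Elovl5, Fasn, Acly and Srebf1) and in 37.4% of all 32851 windows, and GGGCGG in 3 (Fads2, Acly and Srebf1) and in 35.7% of all windows. The E-box CACGTG was found in Elovl5 alone of the 7, and in 7.15% of all windows. Neither TCACNCCAC, a form of the sterol regulatory element, nor TGATGNAA, a form of the C/EBP-ATF element, was found in the windows of the 7 genes, and they were found in 1.24% and 3.97% of all windows. These matches are letters in a window and not shown to be binding sites.

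The elongase genes overlapped between genotypes. Elovl5, which lengthens polyunsaturated chains, read 7.68 and 7.22 (WT) against 8.17, 7.68 and 7.61 (Polg mutant). The highest value was on Polg mutant replicate 1 and the lowest on WT replicate 2, and the difference was 0.37 ± 0.26 (SE; limma adjusted p = 0.638). It was 0.60 without WT replicate 1, 0.14 without WT replicate 2 and 0.20 without Polg mutant replicate 1. Elovl6, which takes palmitate to stearate, the substrate of Scd1, read 7.13 and 7.11 (WT) against 7.28, 7.04 and 7.11 (Polg mutant). Its difference of 0.02 ± 0.08 (SE) was smaller than its SE.

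The synthesis enzymes stood at similar levels in both genotypes. Acly read 8.012 and 8.002 (WT) against 8.28, 8.19 and 8.07 (Polg mutant), higher on all Polg mutant arrays by at least 0.06, with a difference of 0.17 ± 0.07 (SE; limma adjusted p = 0.638). Fasn read 7.94 and 7.71 (WT) against 8.07, 7.95 and 7.94 (Polg mutant), and its difference of 0.16 ± 0.09 (SE; limma adjusted p = 0.638) left the groups overlapping at 7.94. The Fasn difference was 0.27 without WT replicate 1 and 0.046 without WT replicate 2. Acaca read 6.51 and 6.33 in WT and 6.41 on all 3 Polg mutant arrays, between the WT values, with a difference of -0.01 ± 0.06 (SE; limma adjusted p = 0.992). The deposited Acaca value was the same on the 3 Polg mutant arrays. With a single WT array left, limma called Acaca in opposite directions, at 0.08 without WT replicate 1 (adjusted p = 0.0362) and -0.10 without WT replicate 2 (adjusted p = 0.0404).

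Srebf1 read 6.68 and 6.32 (WT) against 6.57, 6.51 and 6.57 (Polg mutant). All Polg mutant values lay between the WT values, and the difference was 0.05 ± 0.12 (SE; limma adjusted p = 0.908). Without WT replicate 1 it was 0.23 and without WT replicate 2 it was -0.14. Srebf2, whose product drives cholesterol synthesis, differed by 0.22 ± 0.09 (SE) and Scap, the escort of both SREBP proteins, by 0.31 ± 0.14 (SE). Insig1, which holds that escort in the endoplasmic reticulum, differed by -0.18 ± 0.09 (SE). Each had a limma adjusted p of 0.638. Srebf2 read 8.79 and 9.03 (WT) with a Polg mutant mean of 9.13, and Scap 7.33 and 6.94 (WT) with a Polg mutant mean of 7.44. Leaving out WT replicate 1 made the Srebf2 difference smaller and the Scap difference larger, each by over 1.5 times. Leaving out WT replicate 2 made the Srebf2 difference larger and those of Scap and Insig1 smaller in size by as much.

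Over the 9 measured genes, 5 differences were above 0 and 4 below, with a median of 0.02. The groups did not overlap for 4 of the 9, with Acly higher and Scd1, Fads1 and Fads2 lower, where 8.36% of all genes were higher and 9.73% lower in this way, 18.1% together. Nothing is read from this count, since the list was chosen with values of this contrast known. Of the 8 genes other than Scd1, limma called 0 over all genes, with 0 at an unadjusted p under 0.05 and adjusted p from 0.632 to 0.992. Their largest difference in size was 0.49, and their median was 0.03. The Scd1 difference minus that median was -3.72, and between -4.07 and -3.40 when 1 array was left out.

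Genes around this pathway were counted on 10 lists with 150 measured genes of 164 listed. With limma 0 were called in either direction, 10 were higher and 9 lower at an unadjusted p under 0.05 (12.7%, beside 9.51% of all genes), and their median difference was 0.01. The median size of the difference was 0.15, beside 0.09 over all genes, and 27 genes were higher and 13 lower with no overlap of the groups, 26.7% together, beside 8.36% higher and 9.73% lower (18.1%) of all genes. The most negative difference was that of Lpcat1 at -0.85, so none came near Scd1. Level was not matched, and 9092 of the 22180 genes lay under the array median on every array. On the lists this held for 0 of 17 cholesterol genes up to 5 of 12 acyl-CoA synthetase genes. Genes of like level were not set beside the lists, so nothing is read from a share above that of all genes. The counts of each list below stand beside the same 8.36% higher and 9.73% lower.

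**Figure D4:**
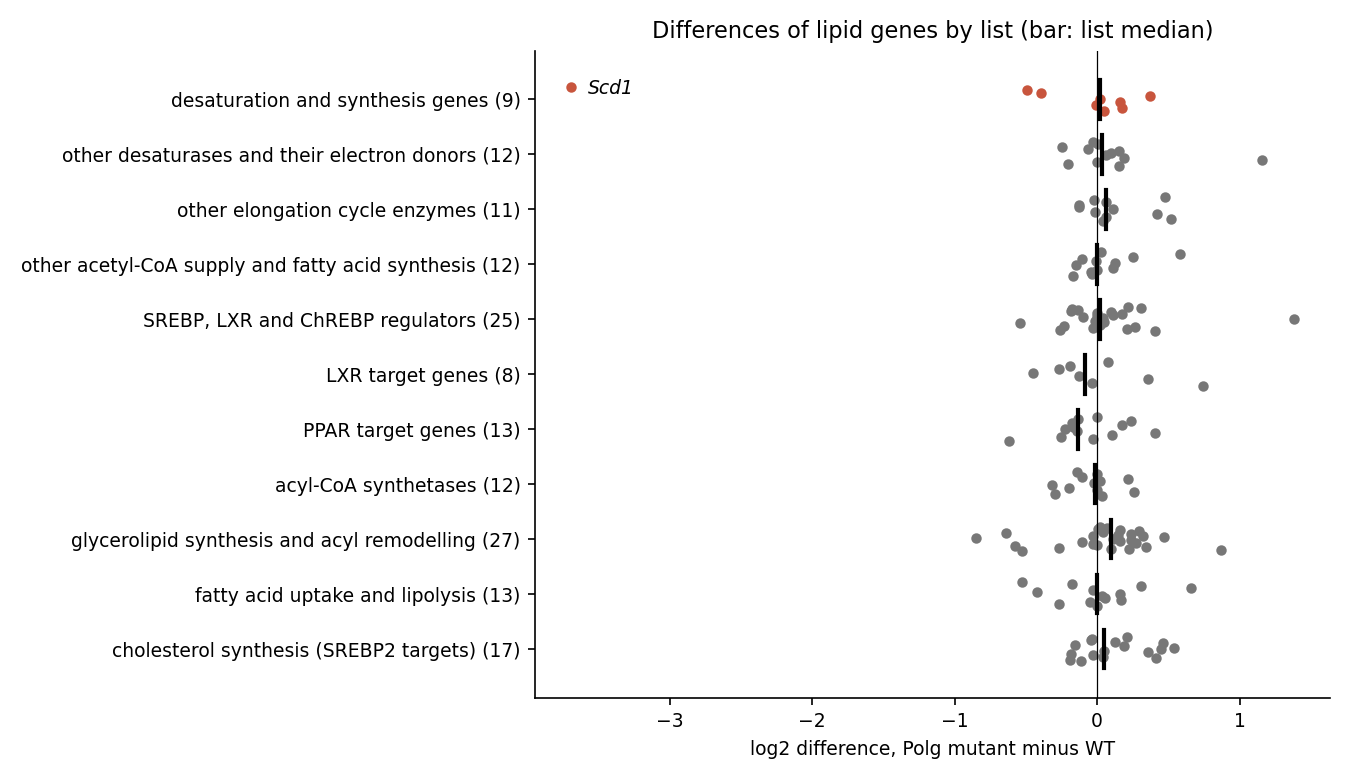
Log2 difference, Polg mutant minus WT, of each measured gene of the desaturation and synthesis list (red) and of 10 lists of other lipid genes (grey), with the number of measured genes in parentheses and the list median as a black bar. Scd1 stood at -3.69, while the other lipid genes lay between -0.85 and 1.38.

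The electron donors of the desaturases did not share the Scd1 difference. Cytochrome b5 and its reductases pass electrons to these enzymes. Cyb5a differed by 0.06 ± 0.09 (SE) and Cyb5b by 0.19 ± 0.21 (SE). Cyb5r1, of the reductase family, was higher at 8.79, 8.56 and 8.89 in the Polg mutant against 7.74 and 7.43 in WT, a difference of 1.16 ± 0.15 (SE; limma adjusted p = 0.226). Cyb5r3 differed by -0.21, Cyb5r4 by 0.15 and Degs1, the dihydroceramide desaturase gene, by 0.15. Of the 12 genes on this list 2 were higher and 1 lower on every Polg mutant array, with a median of 0.03.

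Among elongation genes, Elovl1, the elongase of very long saturated chains, read 8.28 and 8.24 (WT) against 8.62, 8.69 and 8.89 (Polg mutant), a difference of 0.48 ± 0.10 (SE; limma adjusted p = 0.283). The dehydratase genes Hacd2 and Hacd4 differed by 0.42 and 0.52, and Elovl7 by -0.12. Without WT replicate 1 Hacd2 was at 0.66 and Elovl7 at -0.24, and without WT replicate 2 they were at 0.18 and -0.0064. Elovl7 read 4.44 to 4.70, under the array medians, and WT replicate 1 and Polg mutant replicates 1 and 3 shared the value 4.46. Of 11 genes 3 were higher and 0 lower on every Polg mutant array. For acetyl-CoA supply and synthesis the same held for 1 higher and 0 lower of 12 genes, namely Slc25a1, the mitochondrial citrate exporter, at 0.25. Acss2, which makes acetyl-CoA from acetate, differed by 0.58 ± 0.32 (SE), and Cbr4 and Mecr, of mitochondrial fatty acid synthesis, by 0.11 and 0.13. WT replicate 1 was low for Acss2 at 7.02, WT replicate 2 and Polg mutant replicate 1 shared the value 7.96, and the difference was 0.11 without WT replicate 1 and 1.05 without WT replicate 2.

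The regulator list held 25 measured genes, of which 5 were higher and 3 lower on every Polg mutant array, with a median of 0.02. Ppard, a nuclear receptor for fatty acids, read 7.21 and 7.38 (WT) against 9.02, 8.32 and 8.69 (Polg mutant), a difference of 1.38 ± 0.24 (SE; limma adjusted p = 0.265). Mbtps1, a protease that activates SREBP proteins, differed by -0.18, Stk11, the kinase upstream of AMPK, by -0.26, and Mlx, the partner of ChREBP, by 0.11. Of the PPAR target genes, 2 of 13 were higher and 0 lower on every Polg mutant array. Plin2, a lipid droplet coat gene, differed by 0.24, Slc25a20, the carnitine carrier, by 0.41, and the beta-oxidation genes Hadha and Acaa2 by -0.17 and -0.26.

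Targets of the nuclear receptor LXR, which also acts on Srebf1 and Scd1, did not move one way. Of 8 measured genes 2 were higher and 2 lower on every Polg mutant array. Lpcat3, which loads polyunsaturated chains onto phospholipids, read 11.89 and 11.75 (WT) against 11.18, 11.47 and 11.46 (Polg mutant), a difference of -0.45 ± 0.12 (SE; limma adjusted p = 0.393). Mylip, a ubiquitin ligase for the LDL receptor, differed by -0.27 and the phosphodiesterase gene Smpdl3a by 0.74, and Apoc1 by 0.36 from a low WT level of 4.42.

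The glycerolipid list held genes on both sides. Its largest difference in size was that of Ptdss1, a phosphatidylserine synthase gene, at 0.87 ± 0.33 (SE; limma adjusted p = 0.579), with 7.10 and 7.03 (WT) against 8.18, 8.24 and 7.37 (Polg mutant). Pcyt1a, the rate-limiting enzyme gene of phosphatidylcholine synthesis, read 9.56 and 9.42 (WT) against 8.893, 8.864 and 8.997 (Polg mutant), a difference of -0.57 ± 0.07 (SE; limma adjusted p = 0.208). Ptdss2, the other phosphatidylserine synthase gene, differed by -0.52 ± 0.06 (SE; limma adjusted p = 0.209), Lpcat1, a lysophosphatidylcholine acyltransferase gene, by -0.85 ± 0.12 (SE; limma adjusted p = 0.236) and Agpat4, of the phosphatidic acid pathway, by -0.64 ± 0.20 (SE). Over its 27 genes, however, 18 differences were above 0 and the median was 0.10, and 4 genes were higher and 4 lower on every Polg mutant array. Of the fatty acid uptake and lipolysis genes, Cd36, a fatty acid translocase, differed by -0.52, Mgll, the monoglyceride lipase, by -0.42, Lipe, the hormone-sensitive lipase, by 0.31 and Pnpla2, the first lipase of triglyceride breakdown, by 0.66, with 1 higher and 2 lower of 13 on every Polg mutant array. Of 12 acyl-CoA synthetase genes 0 were higher and 1 was lower in this way.

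Cholesterol synthesis genes, the targets of SREBP2, were higher on every Polg mutant array in 7 of 17 measured genes and lower in 0, beside 8.36% and 9.73% of all genes, with a median of 0.05. Lss, lanosterol synthase, read 5.72 and 5.60 (WT) against 6.40, 6.10 and 6.10 (Polg mutant), a difference of 0.54 ± 0.12 (SE; limma adjusted p = 0.319). Fdps, farnesyl diphosphate synthase, differed by 0.46, the sterol desaturase gene Sc5d by 0.41 and Hmgcs1, an early enzyme of the route, by 0.21. With limma 3 of the 17 genes were higher and 0 lower at an unadjusted p under 0.05, beside 4.18% and 5.33% of all genes.

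No gene that was searched matched the Scd1 pattern in size. Likeness was measured as the root mean square difference from Scd1 over the 5 arrays after each gene was centred on its own mean, on which a flat gene stands at 1.84. The search held 7664 genes with a mean level of at least 6, which Scd1 itself did not reach. Symbols such as Gm, Rik, LOC, Olfr, Vmn, Mir and Snor were left out. The 8 closest genes stood between 0.84 and 1.19. Cyp4b1-ps2, a cytochrome P450 pseudogene, came first with 10.16 and 9.93 (WT) against 8.35, 7.97 and 7.45 (Polg mutant). Cacna1g, a T-type calcium channel gene, and Runx1t1, a transcriptional corepressor gene, followed with differences of -2.13 and -2.27. The other 5 were the acid phosphatase gene Acp5 (-1.46), the lysosomal protein gene Gpr155 (-1.45), the Rag GTPase gene Rragd (-1.43), the glutathione transferase gene Gstt1 (-1.52) and the platelet glycoprotein gene Gp9 (-1.36). These genes were selected by their values on the same arrays, so their differences are a description.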

How the data were processed

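Affymetrix whole-transcript arrays of 5 RNA samples (100 ng each) were read as 1 table of 41345 probe sets. The authors deposited log2 expression values, 1 column per array, and RMA and Partek 6.5 are named in the submitters' processing notes without a role. That the scale is log2 follows from the range of the values (1.43 to 14.1), and they were used as deposited, with no dim probe set removed. The genome build is not given in the sources used here. Platform annotation gave 23521 probe sets 1 symbol, 1814 several and 16010 none. Genes were named from single-symbol probe sets, the brightest over all arrays where a gene had several (1082 genes), which gave 22180 genes. Genotypes were tested with limma 3.58.1 under R 4.3.3 (genotype as the single term, empirical Bayes moderation, two-sided, Benjamini-Hochberg adjustment over all genes, threshold 0.05), after the code was tested on simulated data. Separate animals are not named in the labels, so a p-value reflects the spread among these arrays alone, and that spread may be technical. Exact permutation of 5 arrays cannot go below p = 0.1. The number of arrays limits the precision. Of the genes tested, 67.9% had the same value on at least 2 arrays.

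The listed genes, the other gene lists, the tests and the alternatives were chosen with earlier results of these data known. The text names all measured genes of the list, up to 4 genes of each other lipid list by smallest p, and the 8 genes most like Scd1. Other genes named (Scd3, Scd4, Fads3, Cyb5a, Cyb5b, Srebf2, Scap, Insig1, Ptdss1, Adipoq, the sex-linked genes and the chromosomal neighbours) were chosen after their values were seen. A planned contrast of Scd1 with Scd2 could not be made. The alternatives were renewed quantile normalization, median centring, a filter at a log2 of 6 on at least 2 arrays, genes with 5 distinct values, no moderation, a variance trend, the mean of probe sets, a replicate block and leaving out each array.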

Additional observations from a re-analysis of the deposited data

How the results depend on the processing

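The Scd1 difference stayed below 0 in all 13 alternative settings, between -4.11 and -3.27 when 1 array was left out and between -3.69 and -3.54 otherwise. Limma called 0 genes higher and 0 lower with median centring, a variance trend, the mean of probe sets or the replicate block. A second quantile normalization gave 8 higher and 1 lower, and the counts were 6 and 5 above a log2 of 6, 4 and 1 without moderation, and 73 and 41 among the 7112 genes with 5 distinct values, a filter that is not independent of the differences. In that last fit 4 of the 9 listed genes remained. The count past the threshold was 1, which is Scd1, and nothing is read from it, since Scd1 was singled out with its values known. The count was 2 among the other lipid genes, Cyb5r1 and Ppard. Leaving out 1 array gave 0 to 713 genes higher and 0 to 1068 lower, 0 to 1 listed gene called (Acaca, without either WT array), 0 to 7 other lipid genes called, and 4 to 8 listed genes whose groups did not overlap. The highest of these came without WT replicate 1, and 511 higher and 413 lower came without WT replicate 2. With a single WT array left, its spread is assumed to equal that of the Polg mutant arrays. The Polg mutant arrays then need only lie on the same side of that array to count as not overlapping. The share of all genes without overlap is not given for these settings, so nothing is read from the 4 to 8. Of 57 lipid genes refitted, 30 moved by over 1.5 times or turned sign without 1 of the WT arrays. Differences below their error turned sign: Acaca was 0.0037 with median centring, and leaving out 1 array gave -0.099 to 0.080 for Acaca, -0.14 to 0.23 for Srebf1, -0.044 to 0.075 for Elovl6, -1.40 to 0.90 for Fads3 and -0.021 to 0.14 for Cyb5a. The cause was not tested. With the replicate block the Scd1 difference was -3.54 ± 0.52 (SE). Same-numbered arrays deviated from their group means with a correlation of 0.19 for number 1 and -0.20 for number 2, over genes. The deviations of the 2 WT arrays mirror each other, so these values cannot show whether replicate numbers pair the arrays. Signal over background was not known, which limits what can be said of Scd3, Scd4 and the Polg mutant level of Scd1.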
